A study of Mus musculus with 2 samples.

Results

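The 30 genes described here make, sense, move or store cholesterol. They were chosen by symbol, as 18 enzymes of the synthesis pathway, 7 regulators and 5 genes of transport and storage, and each was joined to its Ensembl gene identifier in both gene tables. All 30 were found among the 43346 Ensembl genes of each table, and none had 0 counts in either library. The data are total RNA sequencing of the midbrain of healthy mouse embryos of strain B6NCrl at embryonic day 16.5. There was 1 group with 2 biological replicates, each made from pooled male and female embryos with no transgene, deletion or treatment named in the labels. The labels give 37 embryos for replicate 2 and no number for replicate 1, and both carry the same donor entry. With 1 group there is no comparison between conditions and no p-value, so each value is given in both pools, and the spread between pools is the only error over samples.

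Cells build cholesterol from acetyl-CoA, first through mevalonate to farnesyl diphosphate, then through squalene to lanosterol, and finally by a series of changes to the sterol ring and side chain. When membrane sterol is low, the escort protein SCAP carries the transcription factor SREBP2 from the endoplasmic reticulum to the Golgi, where proteases release its active part, and INSIG proteins hold this complex back when sterol is high. Circulating lipoproteins hardly cross the blood-brain barrier, so brain cells make their own cholesterol, and growing axons and later myelin need much of it. Liver X receptors sense oxysterols and switch on the export pumps ABCA1 and ABCG1.

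RefSeq promoter windows, which run from 250 bases before to 50 bases after an annotated start, were found for 25 of the 30 genes, as 34 windows on GRCm38.p6. Fdps, Fdft1, Sqle, Abcg1 and Npc1 were not matched. The upstream stretches of 4 windows are printed 5′ to 3′ because they belong to the most abundant enzyme, to 2 regulators of the pathway and to the least abundant member. Each stretch stops before the first base that GENCODE M21 places in an exon of the gene. Capitals mark matches on either strand to a sterol element core (TCACNCCAC), a GC box (GGGCGG), an NF-Y box (CCAAT) or an E-box (CACGTG). Hmgcs1 is shown at chr13:119690101-119690350 on the + strand, Insig1 at chr5:28071162-28071362 on the + strand, Srebf2 at chr15:82147019-82147180 on the + strand and Nr1h3 at chr2:91195152-91195366 on the − strand.
Hmgcs1: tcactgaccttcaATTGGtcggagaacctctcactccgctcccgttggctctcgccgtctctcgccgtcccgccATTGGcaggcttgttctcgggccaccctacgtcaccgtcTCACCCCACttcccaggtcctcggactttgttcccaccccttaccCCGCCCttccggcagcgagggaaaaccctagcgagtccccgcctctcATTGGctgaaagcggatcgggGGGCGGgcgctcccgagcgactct
Insig1: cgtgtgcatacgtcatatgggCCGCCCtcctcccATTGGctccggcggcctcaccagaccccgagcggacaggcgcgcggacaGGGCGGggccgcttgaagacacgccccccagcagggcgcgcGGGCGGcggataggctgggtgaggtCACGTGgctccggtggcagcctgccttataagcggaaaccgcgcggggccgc
Srebf2: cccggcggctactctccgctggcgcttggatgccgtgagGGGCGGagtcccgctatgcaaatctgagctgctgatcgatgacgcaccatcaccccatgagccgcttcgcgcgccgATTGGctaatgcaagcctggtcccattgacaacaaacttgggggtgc
Nr1h3: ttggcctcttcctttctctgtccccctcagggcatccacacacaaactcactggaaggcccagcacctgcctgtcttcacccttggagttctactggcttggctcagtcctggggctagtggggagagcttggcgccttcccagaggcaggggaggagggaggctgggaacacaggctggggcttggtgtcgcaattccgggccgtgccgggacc
The printed Hmgcs1 stretch holds 1 sterol element core with 3 NF-Y boxes and 2 GC boxes around it. The Insig1 stretch holds 3 GC boxes, 1 NF-Y box and 1 E-box, the Srebf2 stretch holds 1 GC box and 1 NF-Y box, and none of the 4 motifs is in the Nr1h3 stretch.

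Over the whole windows, the sterol element core in this spelling was in 1 of the 34 windows, that of Hmgcs1, against 1.24% of 32851 mouse windows. The GC box was in 26 windows (76.5%), against 35.7% of all windows and 63.6% of the 9482 windows of genes at 10 TPM or more in both pools (TPM is transcript abundance per unit of the library, corrected for length). The NF-Y box was in 21 windows (61.8%), against 37.4% of all windows and 38.0% of windows of those abundant genes. NF-Y box matches were in windows of 20 of the 25 genes, with Acat2, Scap, Nr1h2, Nr1h3 and Abca1 as the genes without one. The E-box was in 7 windows (20.6%), against 7.15% of all and 9.98% of windows of the abundant genes. Windows of 1 gene overlap in part in some cases, and a match of letters describes the window only.

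**Figure D1:**
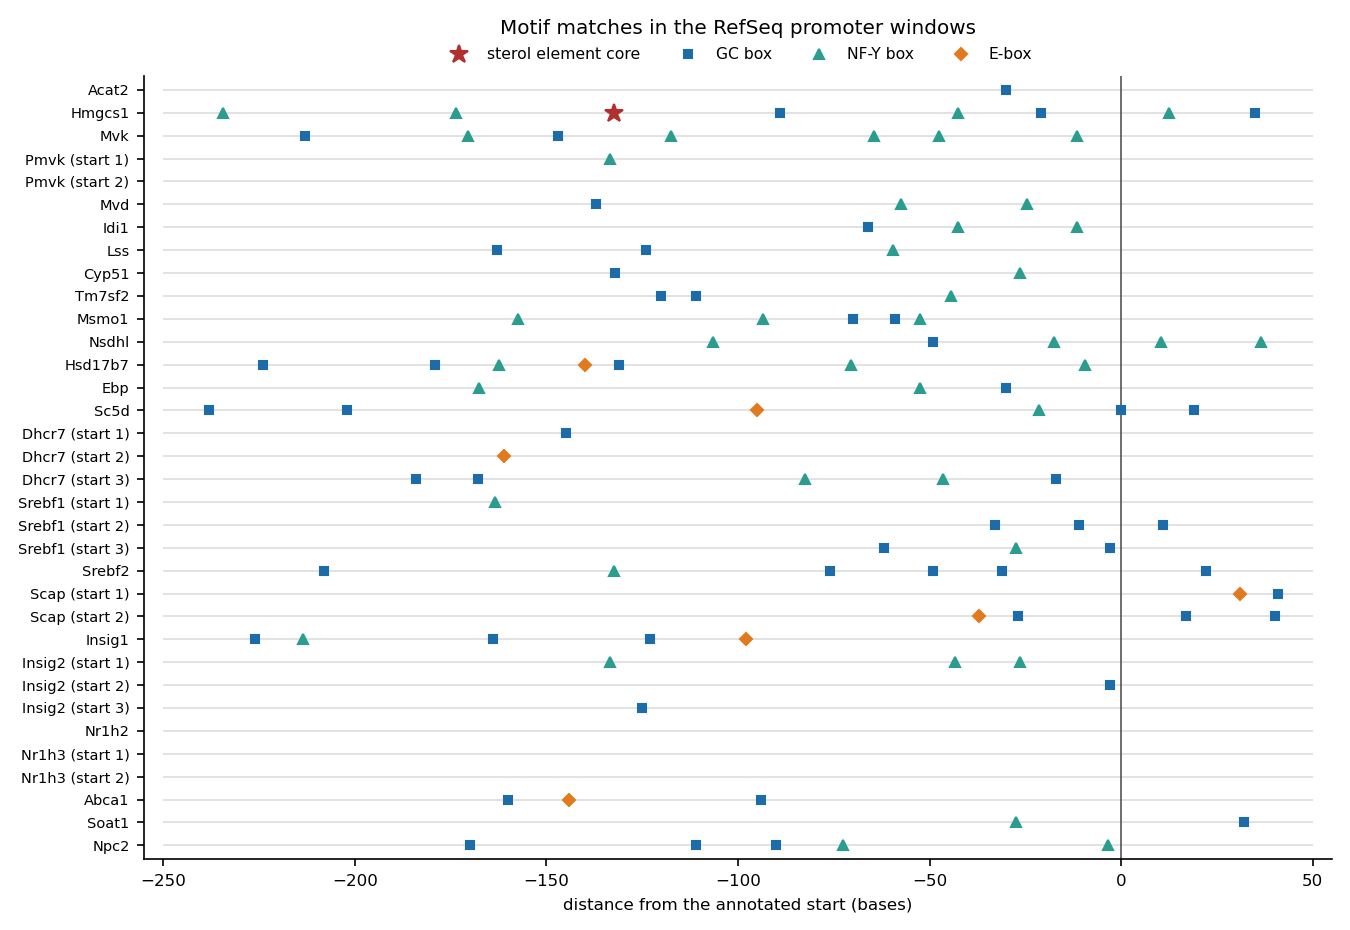
Matches to the 4 motifs in the 34 promoter windows, with distance from the annotated start in bases on the horizontal axis and 1 line per window, ordered along the pathway. The star marks the single sterol element core, in Hmgcs1, and the lines of Nr1h2 and Nr1h3 and that of Pmvk (start 2) hold no match.

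Levels are given in TPM, on which genes of different length can be compared, first in replicate 1 and then in replicate 2. Most of the genes were abundant. The median over the 30 genes was 59.3 ± 1.72 TPM (SD of the pool medians, n = 2), against 20.3 TPM over the 13333 protein-coding genes detected at 1 TPM or more in both pools. In both pools 27 of the 30 genes were at 10 TPM or more, against 66.4% of detected protein-coding genes, and 8 (26.7%) were at 100 TPM or more, against 12.5%. All 8 were enzymes, and over protein-coding transcripts only 7 were left, without Msmo1.

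The mevalonate steps had the highest level of the roles, with a median of 113 TPM over 7 genes. Hmgcs1, the cytosolic HMG-CoA synthase (ENSMUSG00000093930.1, chr13:119690379-119708260), was the most abundant member at 532 and 534 TPM, from 30853 and 36072 counts. Its mean of 533 ± 1.28 TPM (SD, n = 2) lay above 98.7% of detected protein-coding genes. Fdps, the farnesyl diphosphate synthase (chr3:89093588-89101959), followed at 412 and 454 TPM, and Acat2, which joins acetyl-CoA units at the start of the pathway (chr17:12942890-12960747), at 323 and 315 TPM. These 3 genes stood apart from each other and from the other members in both pools.

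The steps between them were lower. Pmvk, the phosphomevalonate kinase, was at 109 and 118 TPM, and Idi1, the isopentenyl diphosphate isomerase, at 94.3 and 100.2 TPM. Mvk, the mevalonate kinase, was at 61.3 and 63.9 TPM and Mvd, the diphosphomevalonate decarboxylase, at 61.4 and 70.4 TPM. The ranges of Mvk and Mvd overlap, so the level does not order these 2 steps. The level thus fell and rose again along the chain, with the 2 kinases and the decarboxylase between the more abundant Hmgcs1 and Fdps in each pool. For Acat2, the near copy Acat3 was counted at 22.5 and 24.8 counts, and the mitochondrial paralog Acat1 was at 141 and 134 TPM.

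Past farnesyl diphosphate the 11 squalene and sterol enzymes had a median of 64.8 TPM. Sqle, the squalene epoxidase and a rate-limiting enzyme of the pathway (chr15:59315077-59331192), led at 209 and 199 TPM. Msmo1, the methylsterol monooxygenase, was at 149 and 168 TPM, Fdft1, the squalene synthase, at 143 and 148 TPM, and Cyp51, the lanosterol demethylase, at 141 and 138 TPM. The ranges of these 4 genes did not overlap. The gaps were small from Msmo1 to Fdft1 (149 against 148 TPM) and from Fdft1 to Cyp51 (143 against 141 TPM). The deposited TPM intervals of Fdft1 and Cyp51 overlap in replicate 1 (135 to 142 and 134 to 141). In replicate 2 they do not (141 to 147 and 132 to 138). Over protein-coding transcripts only, Msmo1 was at 94.8 and 109 TPM and thus below Fdft1 and Cyp51.

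The other 7 sterol enzymes were below 100 TPM in both pools. Sc5d, the sterol desaturase, was at 75.4 and 75.9 TPM, Dhcr7, a reductase of the last steps, at 60.6 and 69.0 TPM and Tm7sf2, a sterol reductase, at 55.2 and 56.8 TPM. Nsdhl, a sterol dehydrogenase, was at 44.6 and 46.6 TPM and Lss, the lanosterol synthase, at 36.5 and 37.1 TPM. Lss thus sat between the more abundant Sqle and Cyp51, the enzymes before and after it, at a level 3 or more times lower than either in both pools. Ebp, a sterol isomerase, was at 29.8 and 26.6 TPM, and Hsd17b7, a ketosteroid reductase, was the lowest enzyme at 20.3 and 21.9 TPM, near the median of detected protein-coding genes.

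Regulators were in the middle of the range. Srebf2, which encodes the SREBP2 factor of sterol synthesis (ENSMUSG00000022463, chr15:82147181-82205379), was at 109 and 98.9 TPM. Srebf1, whose product mainly drives fatty acid synthesis (chr11:60199089-60222581), was at 26.2 and 27.6 TPM. Srebf2 was higher in both pools, by a log2 ratio of 2.05 and 1.84 (mean 1.95 ± 0.150, SD, n = 2), or 3.85-fold. That ratio was 2.62 over protein-coding transcripts only.

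Scap, the sterol-sensing escort, was at 42.6 and 41.0 TPM. Insig1, itself a target of SREBP factors (chr5:28071363-28078662), was at 67.7 and 74.3 TPM and Insig2 at 41.8 and 37.2 TPM. Insig1 was above Insig2 by a log2 ratio of 0.70 and 1.00, or 1.80-fold on average, so the pools differed in the size of the ratio but not in its direction. Scap and Insig2 overlapped in level.

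The liver X receptors differed most among the paired genes. Nr1h2, the broadly expressed receptor LXR beta, was at 43.2 and 47.1 TPM. Nr1h3, LXR alpha (chr2:91184061-91202834), was the lowest member at 2.48 and 2.23 TPM, from 78 and 80 counts, and above 7.86% of detected protein-coding genes. The log2 ratio of Nr1h2 to Nr1h3 was 4.12 and 4.40 (mean 4.26 ± 0.197, SD, n = 2), or 19.2-fold.

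Genes of transport and storage were the least abundant role, with a median of 24.0 TPM over 5 genes. Abca1, which loads cholesterol onto lipoproteins, was at 7.90 and 8.26 TPM, and Abcg1, a second export pump, at 29.0 and 28.4 TPM. The log2 ratio of Abca1 to Abcg1 was -1.88 and -1.78, so Abcg1 was 3.55-fold higher on average. In raw counts, which are not corrected for length, the log2 ratio was -0.30. Soat1, which esterifies cholesterol for storage, was at 8.25 and 7.96 TPM, and its paralog Soat2 was at 0.07 and 0.18 TPM.

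The lysosomal export pair was nearer in level. Npc2, the soluble carrier, was at 45.3 and 43.2 TPM and Npc1, the membrane protein that receives its cargo, at 24.1 and 23.9 TPM. Npc2 was 1.84-fold higher (log2 0.91 and 0.85). Ranking all 30 genes by mean level gives 29 neighbouring pairs, and in 10 of these the ranges of the pools overlap, so those neighbours are not ordered by these data. The ranges leave out the error of each estimate, so some other pairs are not firmly ordered either. Insig2 and Lss do not overlap by range. Their deposited TPM intervals do, at 39.5 to 52.3 and 29.8 to 42.1 in replicate 1 and 36.8 to 46.8 and 31.3 to 42.3 in replicate 2.

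**Figure D2:**
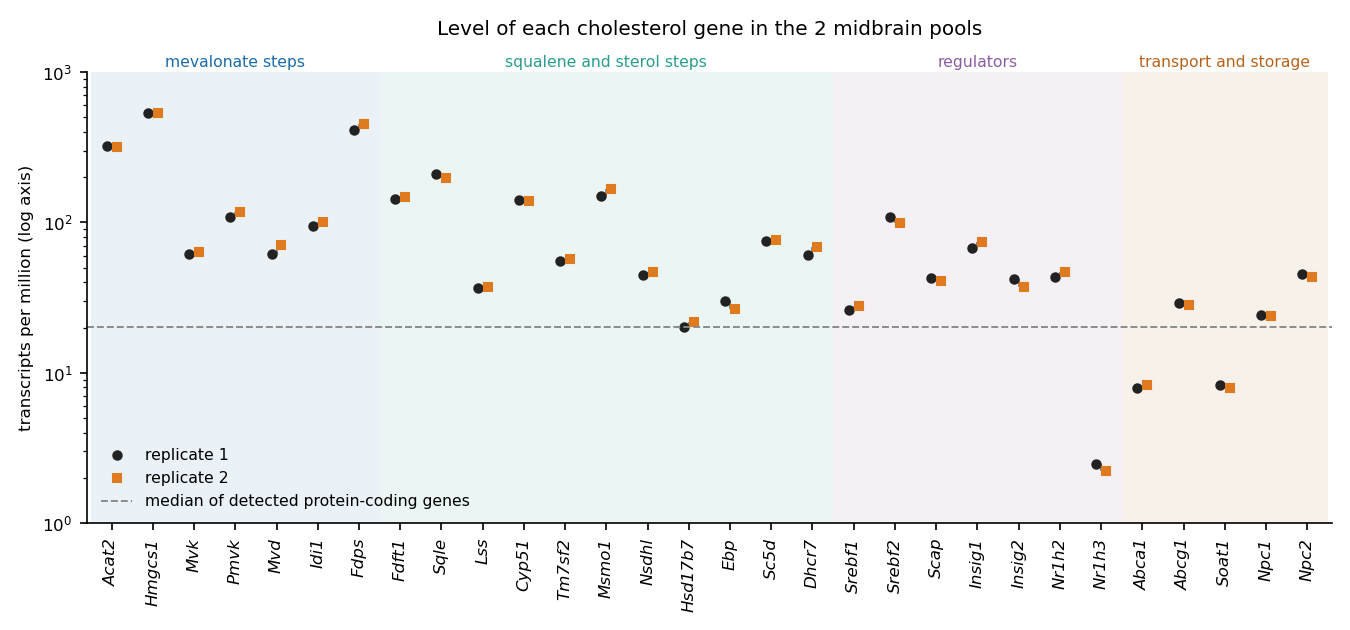
Level of each gene in TPM on a log axis, in pathway order, with circles for replicate 1 and squares for replicate 2. The dashed line is the median of detected protein-coding genes (20.3), which all mevalonate genes exceed, while Nr1h3, Abca1 and Soat1 lie below 10 in both pools.

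Transcript tables divide each gene among its annotated transcripts. Of the 29 members at 5 TPM or more in both pools, 28 had the same leading transcript in both, and in 17 it held 90% or more of the gene's TPM in each pool. The 17 included Hmgcs1, Fdps, Fdft1, Sqle, Srebf2, Scap and Insig1. The exception was Ebp, led by a 526-base coding transcript in replicate 1 (39.8%) and by a 1743-base coding transcript in replicate 2 (42.8%). In replicate 1 the 1743-base transcript was close behind, at 37.2% of TPM. It led in both pools by share of counts, with 62.2% and 66.5%, against 17.3% and 13.6% for the 526-base transcript.

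In 8 members the leading transcript held less than 60% in both pools: Lss, Tm7sf2, Hsd17b7, Ebp, Srebf1, Insig2, Nr1h2 and Soat1. In 10 members transcripts not typed as protein-coding (retained introns, processed transcripts and targets of nonsense-mediated decay) held 10% or more of TPM in both pools. Lss had the highest such share, 58.1% and 58.3% of TPM, and its coding transcripts amounted to 15.3 and 15.5 TPM. Of the counts of Lss, the non-coding share was lower, 42.2% and 47.1%. In Msmo1 the share of TPM was 36.6% and 34.9%, mostly a processed transcript of 1329 bases (32.1% and 31.5%). Over protein-coding transcripts only, the mean level was lower by more than 1.5 times in 5 members, Lss, Tm7sf2, Msmo1, Hsd17b7 and Srebf1.

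Short transcripts weigh more in TPM than in counts. In Srebf1 the non-coding share was 38.3% and 36.0% of TPM but 5.57% and 4.94% of counts. The leading coding transcript, of 4299 bases, held 37.7% and 34.6% of TPM. A processed transcript of 367 bases, which starts 1977 bases upstream of it, held 27.0% and 24.4%, and a coding transcript of 3177 bases, which starts 10139 bases downstream of it, held 20.3% and 21.3%. In Hsd17b7 the non-coding share was 36.4% and 35.6% of TPM and 8.99% and 8.55% of counts.

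The shares of transcripts of similar length in Nr1h2 differed between pools more than the gene did. The coding transcript of 1839 bases held 42.8% and 27.1%, that of 1988 bases 27.9% and 7.85%, and that of 1999 bases 5.85% and 24.8%, while the whole gene was at 43.2 and 47.1 TPM. These shares are model estimates from reads that fit several transcripts.

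**Figure D3:**
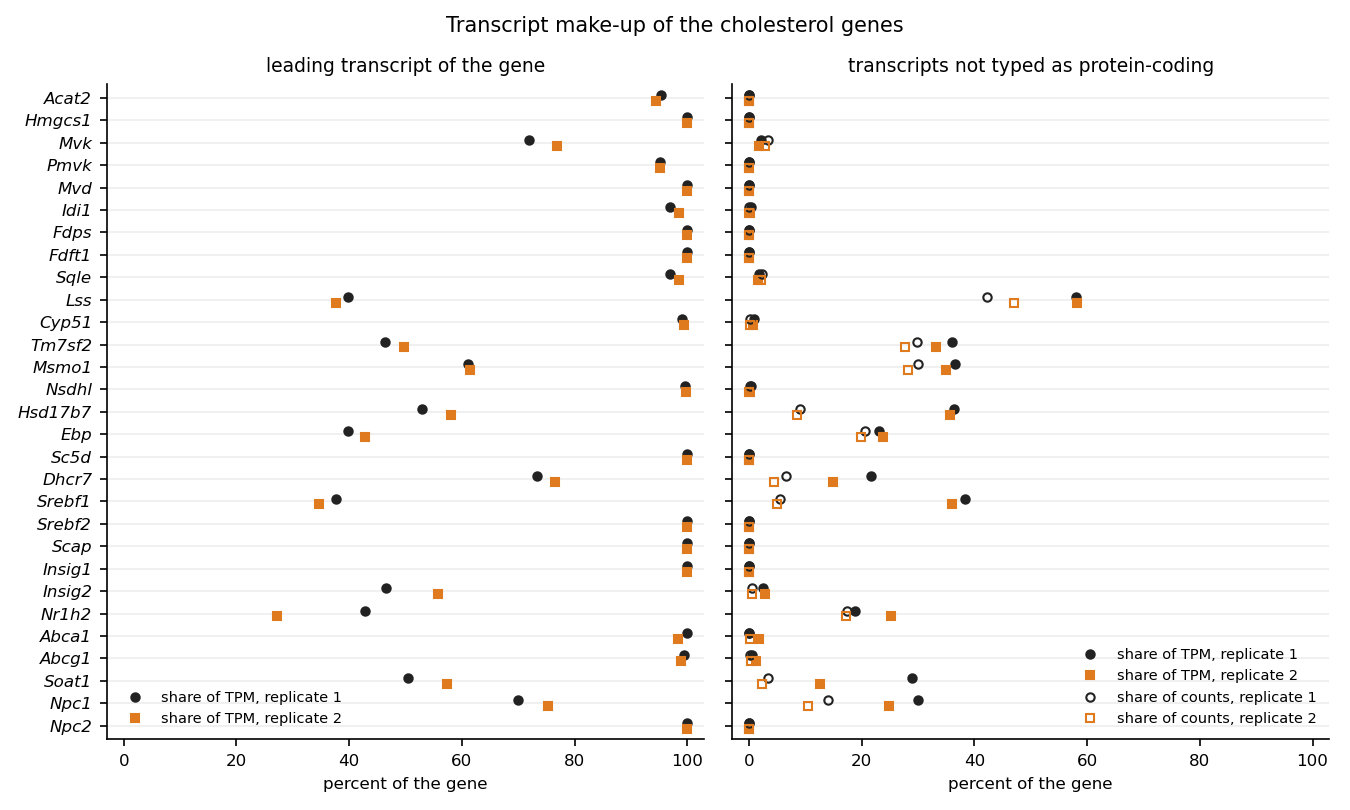
Percent of each gene held by its leading transcript (left) and by transcripts not typed as protein-coding (right) for the 29 members at 5 TPM or more, with filled symbols for shares of TPM and open symbols for shares of counts. Lss, Srebf1 and Hsd17b7 have high non-coding shares of TPM, and in Srebf1 and Hsd17b7 the open symbols lie below 10%.

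Ratios between the pools are log2 of replicate 2 over replicate 1 from counts scaled by TMM factors, with a 95% exact binomial interval that covers counting error only. No member of 30 was higher by 25% or more in replicate 2, against a background of 7.89% of the 14412 genes with a mean of at least 50 counts, and none in replicate 1, against 5.34%. None differed by 2-fold or more, against 0.645% of genes. All members but Nr1h3 had a mean of at least 500 counts, and of genes that deep only 3.50% and 2.24% were 25% or more higher in replicate 2 and in replicate 1. At that depth 0 of 29 members is a share near the background. All 30 ratios lay within 0.26 of no difference on the log2 scale, where 81.2% of all genes compared also lay. In bulk RNA, fewer cells of a type and less RNA per cell cannot be told apart, and this holds for every ratio between the pools.

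TMM factors set a gene against the other genes of its library. Spike-ins took 1.49% and 2.23% of the counts of the 2 libraries, and scaling by them lowers every ratio by 0.60 on the log2 scale and brings the median of all genes to -0.59. All 30 members were then lower in replicate 2, as were nearly all genes (1.95% of those compared were higher), so each direction below is relative to the other genes of a library.

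Within that narrow range the direction was mostly shared. In replicate 2, 23 of 30 members were higher with TMM factors, against 51.9% of all genes compared (with spike-in totals 0 of 30, against 1.95%). Among the enzymes 16 of 18 were higher, all but Sqle and Ebp. The enzymes' median log2 ratio was 0.11 (0.15 over the mevalonate steps and 0.10 over the squalene and sterol steps), that of the regulators 0.04 and that of transport and storage 0.07. With deposited TPM the enzymes' median was 0.06, and those of the regulators (-0.06) and of transport and storage (-0.03) turned below 0, so no direction is given for these 2 roles. On the TPM scale as deposited, 18 of 30 members and 14 of 18 enzymes were higher in replicate 2, against 43.0% of genes. Set against the all-gene median of the same scale, 15 of 18 enzymes were above it with TMM factors and 15 with deposited TPM. With 1 library per pool, these counts describe the 2 pools and carry no test.

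For 16 of 30 members the counting interval lay wholly above no difference, against 22.9% of all genes compared, and for 1, Srebf2, wholly below it, against 20.2%. Because intervals narrow with depth, the same counts were set beside genes with a mean of at least 500 counts: 23 of 29 members were higher in replicate 2, against 50.8%, 16 had an interval above, against 26.3%, and 1 had an interval below, against 24.6%. Of the 16 members with an interval above, 13 were enzymes.

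Dhcr7 had the largest ratio, log2 0.26 (interval 0.18 to 0.34), at 71.6 and 85.9 CPM after scaling. Mvd was at log2 0.23 (0.15 to 0.32), Hsd17b7 at 0.23 (0.12 to 0.35) and Soat1 at 0.23 (0.09 to 0.38). Soat1 was not higher in TPM (8.25 and 7.96), so its direction depends on the scale. Fdps was at log2 0.18 (0.14 to 0.22), Msmo1 at 0.18 (0.13 to 0.24) and Insig1 at 0.17 (0.11 to 0.24). The most abundant gene, Hmgcs1, was nearly equal at 0.04 (0.02 to 0.06), as was Acat2 at 0.00 (-0.03 to 0.04).

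Srebf2 was lower relative to other genes, at log2 -0.10 (-0.14 to -0.06), from 312 and 292 CPM after scaling. Srebf1 was at 0.15 (0.04 to 0.26). Nr1h3 had the widest interval, -0.61 to 0.32 around -0.15, and at its 78 and 80 counts a difference of 25% between pools was not detectable.

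**Figure D4:**
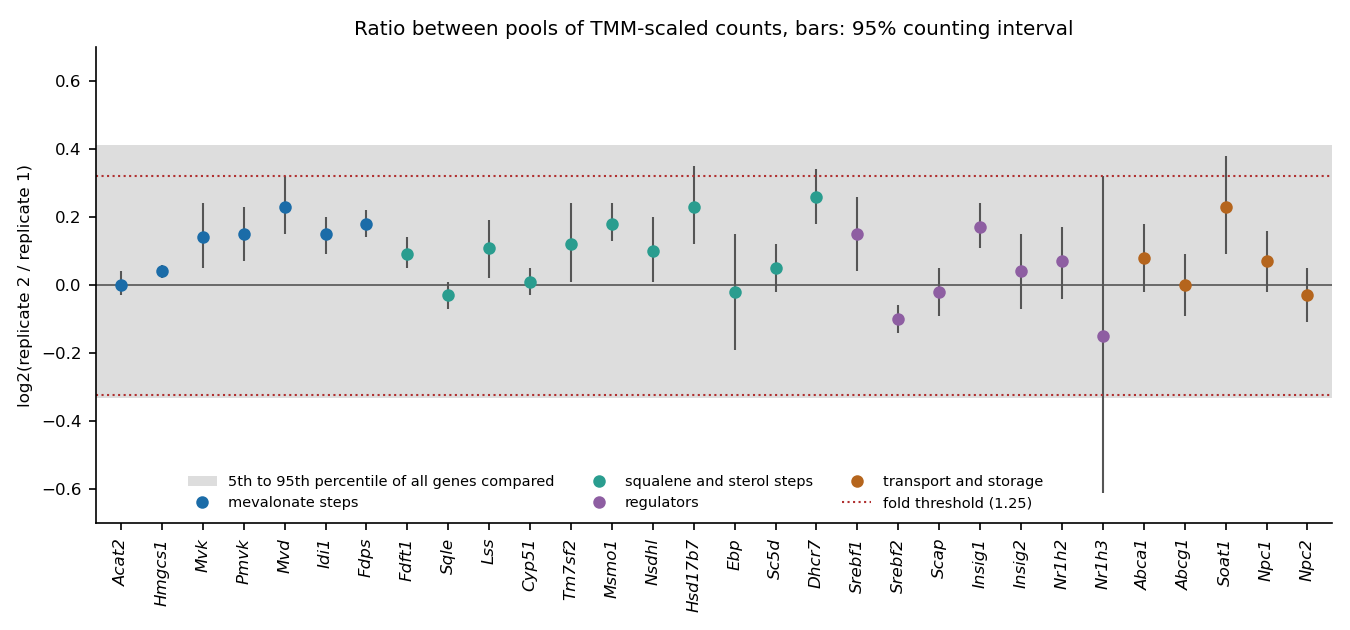
Log2 ratio of replicate 2 to replicate 1 for each gene in pathway order, with bars for the 95% counting interval, dotted lines at a difference of 25% and a grey band from the 5th to the 95th percentile of all genes compared. All points lie inside the dotted lines, 16 of 18 enzymes lie above 0 with these factors (spike-in totals would move all points down by 0.60), and Srebf2 lies below it.

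Genes of neighbouring pathways are given as whole lists. Over all genes compared, 7.89% were 25% or more higher in replicate 2 and 5.34% in replicate 1. Of 11 other isoprenoid genes, which lead from farnesyl diphosphate to prenylated proteins, dolichol and ubiquinone, none was 25% or more higher in either pool and the median was log2 0.00. The 3 highest were Fnta, a subunit of protein prenyltransferases, at 77.5 and 76.3 TPM, Ggps1, which makes geranylgeranyl diphosphate, at 54.3 and 51.4 TPM, and Rabggta, a subunit of the enzyme that prenylates Rab proteins, at 49.0 and 48.0 TPM. Of 10 genes of SREBP processing and degradation none was either (median log2 -0.03). The 2 highest there were Ube2g2, a ubiquitin-conjugating enzyme, at 69.1 and 67.5 TPM, and Erlin2, a membrane protein of the endoplasmic reticulum, at 66.2 and 67.6 TPM.

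Fatty acid synthesis was led by Scd2, a stearoyl-CoA desaturase, at 237 and 259 TPM, Fads2, a fatty acid desaturase, at 199 and 239 TPM, and Acly, which supplies cytosolic acetyl-CoA, at 194 and 182 TPM. Of its 11 genes 2 were 25% or more higher in replicate 2, against 7.89% of all genes compared, and none in replicate 1, against 5.34%. The 2 were Scd1 at 5.96 and 7.38 TPM (log2 0.35, interval 0.18 to 0.51) and Me1, the malic enzyme, at 38.0 and 43.1 TPM (0.32, 0.24 to 0.41). On the TPM scale Scd1 was 23.8% and Me1 13.4% higher, so neither call holds there. The list's median was log2 0.10.

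Sterol carriers and breakdown genes held the larger differences. Of 20 other sterol carriers and lipoprotein genes 3 were 25% or more higher in replicate 2, against 7.89% of all genes compared. None was in replicate 1, against 5.34%. Apoe, the main apolipoprotein of the brain, was at 296 and 566 TPM (log2 0.96, interval 0.92 to 1.01). Clu, another apolipoprotein, was at 82.3 and 130 TPM (0.67, 0.60 to 0.74) and Nceh1, a cholesteryl ester hydrolase, at 13.4 and 14.9 TPM (0.34, 0.19 to 0.49). Apoe was also the highest of its list, followed by Scp2, a sterol carrier protein, at 162 and 174 TPM and Gramd1a, a sterol transfer protein, at 173 and 161 TPM. The list's median ratio was log2 0.10, far below that of Apoe and Clu. On the TPM scale Apoe was 91.1%, Clu 58.2% and Nceh1 11.0% higher, so the call for Nceh1 does not hold there.

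Of 6 genes that oxidise or break down cholesterol 4 had counts enough to compare. Of these, 2 were 25% or more higher in replicate 2, against 7.89% of all genes compared, and none in replicate 1, against 5.34%. Cyp46a1, the neuronal enzyme that makes hydroxycholesterol for export, was at 17.8 and 23.9 TPM (log2 0.47, interval 0.32 to 0.61). Cyp7b1, an oxysterol hydroxylase named after its values were seen, was at 2.64 and 4.24 TPM (0.72, 0.37 to 1.08). The next 2 by level were Hsd3b7, of bile acid synthesis, at 8.25 and 9.80 TPM, and Cyp39a1, an oxysterol hydroxylase, at 5.96 and 4.96 TPM. The list was low as a whole, with a median of 4.45 TPM and 1 of 6 genes at 10 TPM or more, against 18 of 18 synthesis enzymes.

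**Figure D5:**
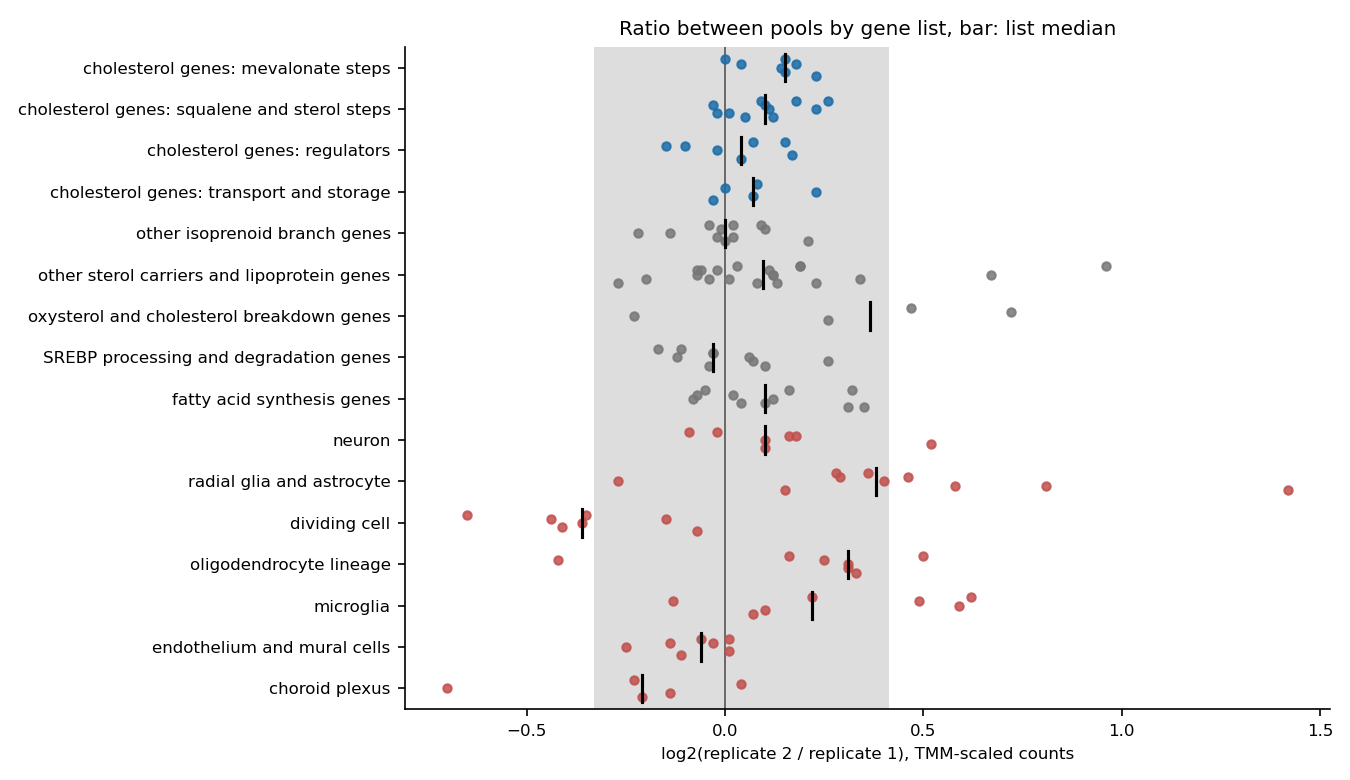
Log2 ratio of replicate 2 to replicate 1 by gene list, with 1 point per gene, a bar for the list median and a grey band from the 5th to the 95th percentile of all genes compared. Blue points are the cholesterol genes, grey points neighbouring pathways and red points cell type markers. The cholesterol genes stay within the band. Apoe, Clu, Cyp46a1, Cyp7b1 and some markers of neurons, astrocytes, the oligodendrocyte lineage and microglia lie to the right of it. Most markers of dividing cells lie to the left of it.

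Markers of cell types also differed between the pools. Over all genes compared, 51.9% were higher in replicate 2 with TMM factors. With TMM factors 9 of 10 radial glia and astrocyte markers were higher in replicate 2, all but Slc1a2 (2 of 10 with spike-in totals, against 1.95% of all genes), and the list's summed level was 1807 and 2297 TPM. All 7 markers of dividing cells were lower in replicate 2, with sums of 228 and 182 TPM. Neuron markers summed to 5142 and 5300 TPM (5 of 7 higher), oligodendrocyte lineage to 171 and 212 (6 of 7 higher), microglia to 91.6 and 116 (6 of 7 higher), endothelium and mural cells to 187 and 177 (5 of 7 lower) and choroid plexus to 438 and 368 (4 of 5 lower). Single genes carry much of some sums: Fabp7 was at 1253 and 1565 TPM, Olig1 at 79.7 and 109 TPM and Ttr at 410 and 341 TPM. With spike-in totals, Aldoc, Aqp4 and Tyrobp were the only markers higher in replicate 2. No marker was at 0 in either pool. Their part in the ratios of the cholesterol genes, Apoe and Clu was not tested. Of midbrain genes, Otx2 was at 56.3 and 64.5 TPM, Th at 15.1 and 24.0 TPM, En1 at 4.99 and 6.34 TPM and Slc6a3 at 4.65 and 8.73 TPM, whereas En2 was at 0.61 and 0.46 TPM and Pitx3 at 1.65 and 1.38 TPM.

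Some members share bases with a neighbour. All 9822 bases of Mvd lie within Gm20388, which is on the opposite strand and had 498 and 639 counts. Fdft1 overlaps Ctsb by 774 bases, Npc1 overlaps Rmc1 by 967 bases, Cyp51 overlaps Akap9 by 166 bases and Srebf1 overlaps Rai1 by 109 bases, all on opposite strands. Tm7sf2 overlaps Vps51 by 532 bases on the same strand. How strand was used in counting is not given in the sources used here, so reads in these stretches are uncertain. Counts were whole in both libraries for 21 of the 30 members, Mvd and Cyp51 among them, so the other 9 had some reads divided with other genes.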

How the data were processed

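Total RNA longer than 200 nucleotides (10 ng) with spike-ins was sequenced from 2 midbrain pools. Per the deposited readme, reads were aligned to mm10 and quantified against GENCODE M4; the aligner and quantifier were not given in the sources used here. Per the file headers, the expected count is the estimated count of reads assigned to a feature, with no normalization. Per the file headers, deposited TPM is scaled for effective length to a fixed total that includes spike-ins. Deposited FPKM values, per the file headers, are scaled for length and library size. Transcript shares are, per the file headers, given as a percent of gene TPM. Deposited posterior means served as alternatives.

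Libraries held 31830355 and 36576263 expected counts, of which spike-ins were 1.49% and 2.23%. Names and coordinates came from GENCODE M21 (GRCm38). Ratios between pools used expected counts plus 0.5, scaled by TMM factors from edgeR 4.0.16 (R 4.3.3) on rounded counts of all Ensembl genes. Their intervals are exact conditional binomial (Clopper-Pearson) at 95%. They treat each read as an independent draw, so they hold counting error alone. Without molecular identifiers reads may repeat a molecule, and the intervals may then be too narrow. This code was tested on simulated independent counts, which hold no repeated molecules. The background is all genes with a mean of at least 50 expected counts, which all 30 members passed. Counts within 0.005 of an integer were called whole. Promoter letters came from RefSeq (GRCm38.p6).

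All members are named, by role. In other lists, the 3 highest genes are named, and any past 1.25-fold with a mean of at least 5 TPM. One gene that this rule names is not reported here. Midbrain genes were chosen after seeing the data. The members and lists were chosen with earlier results of these data known. Alternatives covered scaling (DESeq2 1.42.0 size factors, library totals, spike-in totals, deposited TPM), posterior means, the added count, filters, the fold, single replicates and, chosen after seeing the data, protein-coding transcripts only.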

Additional observations from a re-analysis of the deposited data

How the results depend on the processing

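The median level of the members was 62.2 TPM with spike-ins left out of the total and 49.3 TPM over protein-coding transcripts only, against 59.3 TPM. Log2 ratios between paired genes from expected counts, not corrected for length, were 2.90 for Srebf2 to Srebf1, 1.42 for Insig1 to Insig2, -0.30 for Abca1 to Abcg1 and 0.46 for Npc2 to Npc1. Over protein-coding transcripts they were 2.62 for Srebf2 to Srebf1, 4.00 for Nr1h2 to Nr1h3 and 1.34 for Npc2 to Npc1, and from posterior mean TPM 3.88 for Nr1h2 to Nr1h3. No pair changed direction. Scaling by spike-in totals moved the median of all genes to log2 -0.59 and put the medians at -0.48 for enzymes, -0.56 for regulators and -0.53 for transport and storage. With it, 0 members were higher in replicate 2, 30 were 25% or more higher in replicate 1, 0 intervals lay above no difference and 30 below. Over all genes compared these shares were 1.95%, 90.1%, 0.479% and 91.5%, so the counts say nothing particular about the members. With deposited TPM the median for transport and storage turned to -0.033, and that of the regulators was -0.06. Of 180 ratios of single members under settings other than spike-in totals, 9 moved beyond their counting interval, all under deposited TPM. The share of genes that far apart was 16.1% (replicate 2) and 14.2% (replicate 1) with no filter beyond a count in both libraries, and 3.50% and 2.24% at a mean of at least 500 counts. No leading transcript changed with posterior means. No paired analysis was possible because there is 1 group. With 2 pools of embryos and no condition, the spread between pools is the only measure of error, and Nr1h3 is limited by its counts.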
